A study of Mus musculus with 12 samples.

Results

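The HSP70 and HSP110 families are described here through 10 of the 27179 genes counted in mouse hippocampal neurons, namely *Hspa1a*, *Hspa1b*, *Hspa2*, *Hspa4*, *Hspa4l*, *Hspa8*, *Hspa12a*, *Hspa13*, *Hspa14* and *Hsph1*. They were taken by name, and all 10 had enough counts over the 12 libraries to be tested, but only 9 over the Ctrl libraries alone. The study asked how neurons adjust chaperone mRNAs in somas and in projections when protein degradation fails. Neurons from newborn C57BL/6 pups (the study's methods name FVB mice as well) were grown for 17 or 18 days on Transwell membranes, porous filters that let neurites grow through while the somas stay on top. The 4 groups had 3 libraries each. Ctrl somas and Ctrl neurites came from cultures given DMSO, the solvent, and MG132 somas and MG132 neurites from cultures given the proteasome inhibitor MG132 at 10 μM for 7 h. The 2 fractions were collected by scraping the somas off the membrane and lysing what remained on it, so that neurites comprise axons, dendrites and any processes of other cells that crossed the pores. Libraries held between 4247610 and 22166347 reads counted on genes. Levels are given as CPM, read counts scaled by TMM for library size and composition, in the order of replicates 1, 2 and 3.

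HSP70 proteins hold unfolded stretches of other proteins in a cycle of ATP binding and hydrolysis. J-domain proteins bring clients and start hydrolysis, and nucleotide exchange factors, among them the HSP110 proteins (large relatives of HSP70), release ADP and the client. Some HSP70 genes are expressed at all times, while others are switched on by heat shock factors, which bind repeats of the 5-base unit nGAAn in alternating orientation in promoters.

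Sequences are shown for the members in whose promoters such repeats were found, to show the letters behind the count of matches. The motifs searched, on both strands, were GAANNTTC and TTCNNGAA, each its own reverse complement, and the 3-unit TTCNNGAANNTTC with its reverse complement, which contains both shorter ones. The windows ran from 250 bases before to 50 after a RefSeq start (GRCm38.p6), and 8 members had one. *Hspa1a* and *Hspa1b* carried the same stretch 104 bases upstream of the start, on the minus strand at chr17:34972244-34972269 and chr17:34959326-34959351. *Hsph1* had 1 match at chr5:149636353-149636378, 33 or 54 bases upstream of its 2 listed starts, and a 3-unit match at chr5:149636282-149636306, beginning at base 16 counted from the downstream start, both on the minus strand. Capitals mark the motif letters.
Hspa1a: aaactgctgGAAgaTTCctggcccca
Hspa1b: aaactgctgGAAgaTTCctggcccca
Hsph1, upstream match: gtagaatctTTCtcGAAggctcgaga
Hsph1, 3-unit match: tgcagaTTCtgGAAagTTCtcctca

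These 3 genes were the ones with a match among the 8 members, or 37.5%, against 16.97% of 27025 genes with either 2-unit motif. The 3-unit motif was found at 1 of the 8 members and at 0.66% of all genes. No match was found in the windows of *Hspa2*, *Hspa4*, *Hspa4l*, *Hspa12a* and *Hspa14*, and *Hspa8* and *Hspa13* were not examined. The *Hspa1a* and *Hspa1b* windows were identical at 98.7% of their 300 bases. The match is a description of the letters and no evidence of binding.

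Near-identical sequence limits what can be counted for some members. The study's counting step, at its defaults, leaves out reads that align to several places, and such reads were estimated as 75-base windows of the longest transcript that also occur in transcripts of other genes. Of the *Hspa8* windows, 68.6% were shared with 11 other genes, chiefly *Gm15459*. For *Hspa1a* and *Hspa1b*, which lie next to each other on chromosome 17, the shares were 61.7% and 55.8%, mostly between the pair. *Hspa14* shared 14.4% of its windows, *Hspa4l* 0.2%, and the other members none. The levels of *Hspa8*, *Hspa1a* and *Hspa1b* are therefore uncertain and may be understated, while a change between groups compares the same countable stretch in all libraries. The plot of shared windows along the transcripts shows that the countable stretches of *Hspa1a* and *Hspa1b* lie mainly at the 3′ end and those of *Hspa8* mainly at the 5′ end. A difference between groups in coverage along transcripts would act unequally on these stretches, and was not tested.

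**Figure D1:**
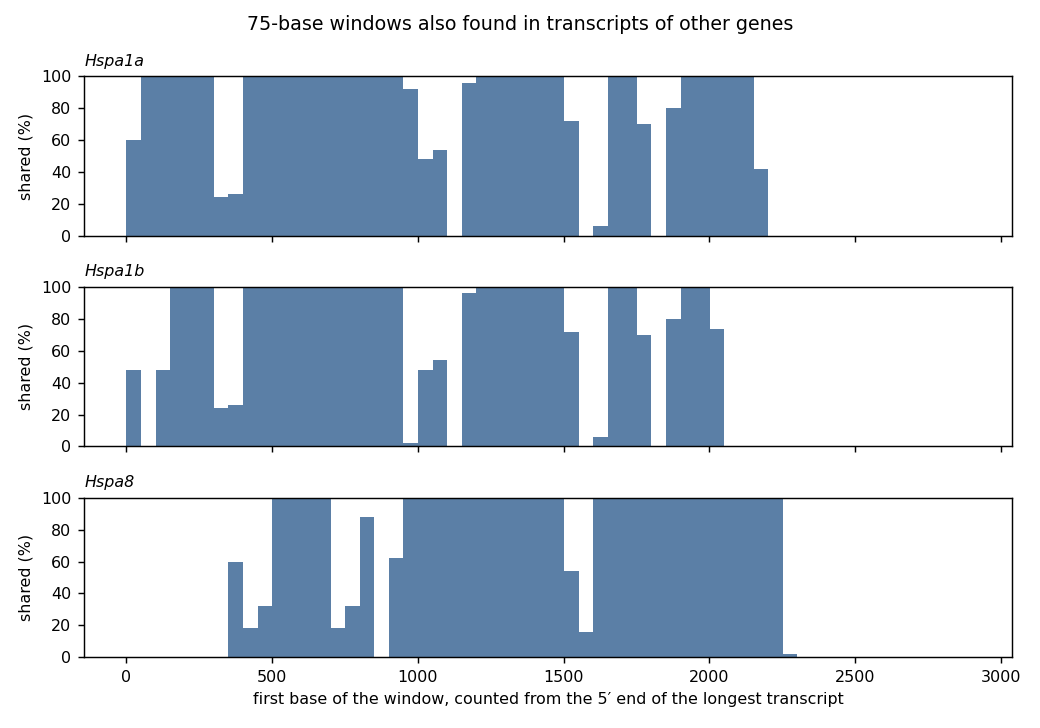
Share of 75-base windows (vertical axis, %) that also occur in transcripts of other genes, in bins of 50 window starts counted from the 5′ end of the longest transcript, for *Hspa1a*, *Hspa1b* and *Hspa8*. Bars at 100% mark stretches where no read of that length would be unique among transcripts; over the whole transcript the shares were 61.7%, 55.8% and 68.6%.

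The labelled cell type was checked first. Each of the 8 neuronal markers, among them *Rbfox3*, *Map2*, *Syn1* and *Snap25*, was detected in every library, and none was called changed between groups with TMM factors. On total counts *Gad1* (-1.84) and *Slc17a7* (-1.58) were called as lower in neurites in Ctrl, and these (-1.95 and -1.28) and *Snap25* (-1.67) in MG132. Their summed level was 1347, 1019 and 901 CPM in Ctrl somas, 1580.1, 1102 and 878 CPM in Ctrl neurites, 1237, 779 and 828 CPM in MG132 somas and 1443, 807 and 927 CPM in MG132 neurites. *Map2* was the most abundant of them. Glial markers were present too and moved with the groups. The 8 astrocyte markers, led by *Gfap*, summed to 4990.3, 5709 and 4597 CPM in Ctrl somas and 21133, 25802 and 20836 CPM in Ctrl neurites, and to 2538, 3125 and 2385 CPM in MG132 somas and 12153, 19713 and 9624 CPM in MG132 neurites. These sums mostly follow *Gfap*, with means of 1967 CPM in Ctrl somas and 17794 CPM in Ctrl neurites. In Ctrl, *Slc1a2*, *Aldh1l1* and *S100b* also had higher means in neurites. *Aqp4* (428 and 369 CPM), *Slc1a3* (1022 and 958), *Sox9* (144 and 107) and *Gjb6* (3.13 and 1.16) had lower means in Ctrl neurites than in Ctrl somas. With MG132, 5 of the 8 fell in somas and 4 in neurites, while 3 were higher in neurites than in somas in Ctrl and 4 in MG132 (on total counts, 2 in each, with *Sox9* called as lower in MG132). *Gjb6* was at 0 in 5 libraries.

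Of the 6 microglia markers, 3 fell in somas and 4 in neurites, and *Cx3cr1*, the fractalkine receptor of microglia, went from 216 to 499 CPM over the Ctrl libraries to 2.38 to 7.30 CPM with MG132. Their most abundant gene was *Cx3cr1* in 5 of the 6 Ctrl libraries and *C1qa* in the other libraries, and their sum was 505, 619 and 594 CPM in Ctrl somas, 507, 533 and 1001 CPM in Ctrl neurites, 124, 217 and 146 CPM in MG132 somas and 76.7, 128 and 170.4 CPM in MG132 neurites. The 8 oligodendrocyte lineage markers summed to 3109, 1458 and 6375 CPM in Ctrl somas, 13362, 5014 and 22009 CPM in Ctrl neurites, 1681, 505 and 5964 CPM in MG132 somas and 6817, 2864 and 15982 CPM in MG132 neurites, and 3 of them fell in each fraction. In Ctrl neurites *Mbp* alone took 11555, 3714 and 18913 CPM of these sums. Fibroblast and endothelial markers, of which *Col1a1*, *Col1a2* or *Dcn* was the most abundant in each library, summed to 157, 147 and 135 CPM in Ctrl somas, 64.3, 42.4 and 29.8 CPM in Ctrl neurites, 49.5, 34.5 and 36.2 CPM in MG132 somas and 18.9, 27.3 and 17.2 CPM in MG132 neurites. Of the 3 tested, 2 fell with MG132 in somas and none in neurites, and 1 was lower in neurites than in somas in Ctrl, while *Cldn5* was at 0 in all but 1 library. On total counts *Col1a1* (-2.66), *Col1a2* (-2.40) and *Dcn* (-1.99) were called as lower in neurites in Ctrl, and *Col1a1* (-1.69) and *Col1a2* (-1.90) in MG132. The 4 nuclear RNAs, led by *Malat1*, summed to 5689 to 8838 CPM in somas and 1789.8 to 4023 CPM in neurites, and 2 of them, *Meg3* and *Neat1*, were lower in neurites in both conditions. On total counts *Malat1* (-1.89 in Ctrl and -2.15 in MG132) and *Snhg11* (-2.40 and -2.66) were called as lower in neurites as well. The part of these other cells in the HSP70 results was not tested. In such bulk samples, fewer cells of a type and less RNA per cell cannot be told apart.

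A gene was called when its edgeR adjusted p was under 0.01 and its change above 1.7-fold on the linear scale. With MG132, 7 of the 10 members rose in somas (*Hspa1a*, *Hspa1b*, *Hspa4*, *Hspa4l*, *Hspa8*, *Hspa13* and *Hsph1*) and 5 in neurites (*Hspa1a*, *Hspa1b*, *Hspa4l*, *Hspa8* and *Hsph1*), and none was called lower in either fraction. Of all 14185 genes tested, 14.6% were called in somas (9.00% higher and 5.58% lower) and 14.7% in neurites (9.25% higher and 5.44% lower). Treated and untreated libraries did not overlap for 7 members in somas and 9 in neurites, beside 45.9% and 40.9% of all genes. The median over the members was a log2 fold change of 1.0 in somas and 0.76 in neurites, beside -0.07 and -0.16 for all tested genes. The inducible pair, *Hspa8* and *Hsph1* were also the 4 members called in each fraction at an absolute log2 fold change above 1.7, beside 4.54% of genes in somas and 4.63% in neurites. At an edgeR adjusted p under 0.05 alone, 7 and 9 members passed, beside 27.5% and 27.0%. With total counts as the scaling, the calls of *Hspa4* (0.96, edgeR adjusted p = 0.0359), *Hspa4l* (1.0, edgeR adjusted p = 0.0205) and *Hspa13* (0.82, edgeR adjusted p = 0.0703) in somas and of *Hspa4l* in neurites (0.59, edgeR adjusted p = 0.172) were lost, with estimates in somas that moved by little, and all calls in neurites turned from 1312 higher and 772 lower to 481 higher and 538 lower. The plot of levels by library shows how unequal the responses were within the family.

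**Figure D2:**
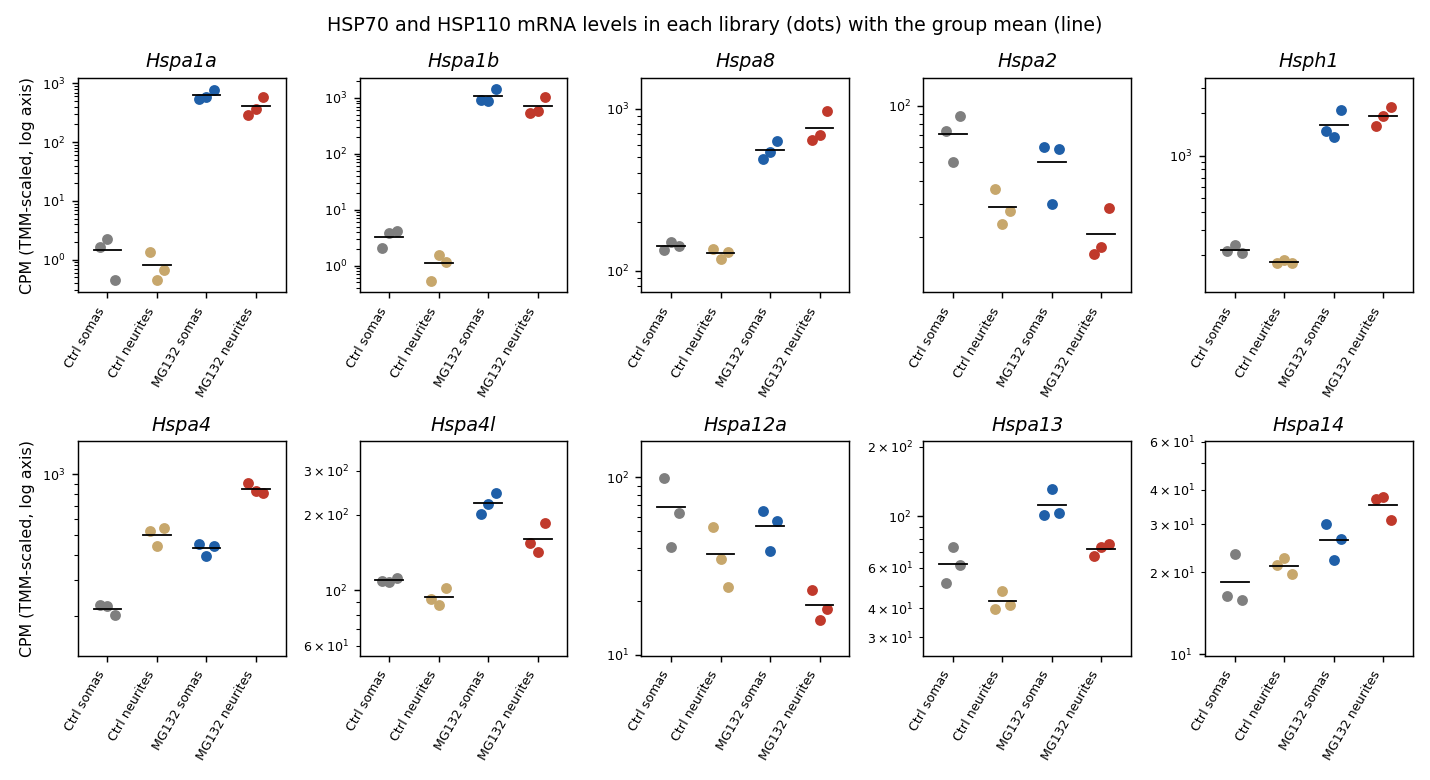
TMM-scaled CPM on a log axis for the 10 members, with 1 dot for each of the 3 libraries of a group and a line at the group mean. *Hspa1a* and *Hspa1b* went from at most 4.08 CPM in Ctrl libraries to at least 287 CPM in MG132 libraries, *Hspa8* and *Hsph1* started higher and rose less, and *Hspa2* and *Hspa12a* had their highest means in Ctrl somas.

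*Hspa1a* and *Hspa1b* encode the stress-inducible cytosolic HSP70, in proteins that are all but identical. *Hspa1a* (Entrez 193740, minus strand, chr17:34969359-34972156) measured 1.66, 2.22 and 0.441 CPM in Ctrl somas, and in MG132 somas 539.8, 579 and 785 CPM. In neurites it measured 1.32, 0.447 and 0.673 CPM in Ctrl and 287, 362 and 593 CPM with MG132. Each MG132 library lay far above each Ctrl library, while the 2 MG132 groups overlapped, as did the 2 Ctrl groups. The Ctrl levels rest on 4 to 24 reads per library, so that their fold changes, 8.75 on the log2 scale in somas (95% confidence interval 7.77 to 9.74, edgeR adjusted p = 2.87e-08) and 9.15 in neurites (8.07 to 10.2, edgeR adjusted p = 5.67e-08), are imprecise.

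*Hspa1b* (Entrez 15511, minus strand, chr17:34956429-34959238) had 2.07, 3.77 and 4.08 CPM in Ctrl somas, while MG132 somas held 910.1, 887 and 1444 CPM. Its neurites held 0.529, 1.57 and 1.18 CPM in Ctrl and 544, 587 and 1047 CPM with MG132. Replicate 3 was the highest of its group in both MG132 fractions, for *Hspa1a* as well, and the MG132 groups overlapped through it. In Ctrl, each neurites library lay below each somas library, on 2 to 37 reads. On the log2 scale *Hspa1b* rose by 8.38 in somas (7.50 to 9.25, edgeR adjusted p = 1.33e-08) and by 9.23 in neurites (8.27 to 10.2, edgeR adjusted p = 1.83e-08). With the counts of both genes summed into 1 feature, which does not restore reads left out as shared, the change was 8.51 for somas (edgeR adjusted p = 2.32e-09) and 9.20 for neurites (adjusted p = 2.03e-09).

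*Hspa8*, the constitutive cytosolic HSP70 also known as HSC70, which uncoats clathrin vesicles beside folding proteins, was abundant before stress. *Hspa8* (Entrez 15481, plus strand, chr9:40801276-40805202) measured 135, 149 and 141 CPM in Ctrl somas, against 490.3, 543 and 634 CPM in MG132 somas. In neurites the levels were 136, 117 and 129.8 CPM in Ctrl and 637, 687 and 972 CPM with MG132. The Ctrl fractions overlapped, whereas each MG132 neurites library lay above each MG132 somas library, by a margin of 637 against 634 CPM. The rise was 3.92-fold in somas (log2 fold change 1.97, 1.57 to 2.37, edgeR adjusted p = 7.69e-06) and 6.00-fold in neurites (2.58, 2.17 to 3.0, edgeR adjusted p = 7.56e-07).

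*Hspa2*, a relative best known from spermatogenesis, did not pass the test with MG132. *Hspa2* (Entrez 15512, plus strand, chr12:76403812-76406938) measured 73.4, 50.5 and 88.4 CPM in Ctrl somas and 36.0, 23.4 and 27.6 CPM in Ctrl neurites, with 60.7, 30.1 and 59.1 CPM in MG132 somas and 16.2, 17.6 and 28.6 CPM in MG132 neurites. Treated and untreated libraries overlapped in both fractions. The log2 differences were -0.49 in somas (-1.13 to 0.14) and -0.47 in neurites (-1.14 to 0.19), intervals that include no change and, at their lower end, a more than 2-fold lower level.

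The HSP110 genes responded to very different degrees. *Hsph1* encodes HSP105, the stress-responsive HSP110 and a nucleotide exchange factor for HSP70. *Hsph1* (Entrez 15505, minus strand, chr5:149616843-149636498) measured 212, 234 and 206 CPM in Ctrl somas, and 1497, 1354 and 2102 CPM were found in MG132 somas. The neurites measured 175, 184 and 175 CPM in Ctrl and 1613, 1904 and 2202 CPM with MG132. Treated and untreated libraries did not overlap, and the 2 treated fractions did. *Hsph1* rose 7.59-fold in somas (2.92 on the log2 scale, 2.48 to 3.37, edgeR adjusted p = 4.96e-07) and 10.7-fold in neurites (3.42, 2.97 to 3.87, edgeR adjusted p = 1.79e-07).

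*Hspa4* and *Hspa4l* encode the other cytosolic HSP110 proteins, APG-2 and APG-1. *Hspa4* (Entrez 15525, minus strand, chr11:53259814-53300479) measured 228, 223 and 203 CPM in Ctrl somas and 527, 444 and 545 CPM in Ctrl neurites, with 455, 394 and 445 CPM in MG132 somas and 908, 824 and 809 CPM in MG132 neurites. Treated libraries lay above untreated ones in both fractions, and on this scale untreated neurites overlapped with treated somas. *Hspa4* rose in somas by 0.98 (0.65 to 1.32, edgeR adjusted p = 3.77e-04), while in neurites the change of 0.75 (0.41 to 1.08, edgeR adjusted p = 0.00251) was 1.68-fold and fell just short of the fold threshold, although treated and untreated libraries did not overlap.

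*Hspa4l* (Entrez 18415, plus strand, chr3:40744500-40796103) measured 109, 108 and 112 CPM in Ctrl somas, rising to 202, 222 and 245.6 CPM in MG132 somas, a log2 fold change of 1.03 (0.69 to 1.36, edgeR adjusted p = 2.82e-04). In neurites it went from 92.6, 87.3 and 102 CPM to 155, 142 and 185 CPM, a log2 fold change of 0.77 (0.44 to 1.10, edgeR adjusted p = 0.00214) that was 1.71-fold and just inside the threshold. No 2 of its 4 groups that neighbour each other in level overlapped. The neurites call was lost without Ctrl neurites replicate 1 (0.76) or replicate 2 (0.72), with DESeq2 (0.75) or its size factors in edgeR (0.75), and with a minimum of 10 counts in every library (0.66). *Hspa4* gained its neurites call without a count filter (0.89) and without Ctrl neurites replicate 1 (0.78) or 3 (0.93) or MG132 neurites replicate 3 (0.91).

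The 3 remaining members are distant relatives, and none had an estimated log2 difference beyond 1 with MG132 in the fit used for the calls. On total counts *Hspa12a* measured -1.095 in neurites and was not called. *Hspa13* encodes a microsomal HSP70 relative. *Hspa13* (Entrez 110920, minus strand, chr16:75755190-75767276) measured 51.5, 73.4 and 61.8 CPM in Ctrl somas, went to 102, 132 and 104 CPM in MG132 somas, and rose by 0.85 (0.48 to 1.23, edgeR adjusted p = 0.00252). In neurites it measured 39.7, 47.3 and 41.4 CPM in Ctrl and 67.5, 73.9 and 75.99 CPM with MG132, a difference of 0.76 (0.38 to 1.14, edgeR adjusted p = 0.00566) that at 1.69-fold was not called. The somas call was lost without Ctrl somas replicate 1 (0.74) or MG132 somas replicate 2 (0.73) and with a minimum of 10 counts in every library (0.76), while the neurites difference was called without a count filter (0.90), without Ctrl neurites replicate 3 (0.85) and without MG132 neurites replicate 3 (0.85).

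*Hspa14* encodes a ribosome-associated HSP70 that works with the J-domain protein DNAJC2 on nascent chains. *Hspa14* (Entrez 50497, minus strand, chr2:3488854-3512814) was the member with the lowest CPM apart from the inducible pair in Ctrl somas, at 16.4, 23.3 and 15.8 CPM, with 30.1, 22.2 and 26.4 CPM in MG132 somas. The neurites measured 21.2, 22.5 and 19.7 CPM in Ctrl and 37.0, 37.6 and 31.1 CPM with MG132. Treated and untreated libraries overlapped in somas and not in neurites, and neither difference was called, at 0.51 in somas (0.04 to 0.98) and 0.74 in neurites (0.27 to 1.21, edgeR adjusted p = 0.0221).

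*Hspa12a* encodes an atypical HSP70 relative that is abundant in brain. *Hspa12a* (Entrez 73442, minus strand, chr19:58795750-58943672) measured 99.8, 40.6 and 62.8 CPM in Ctrl somas and 52.7, 34.9 and 24.2 CPM in Ctrl neurites, with 64.4, 38.7 and 56.5 CPM in MG132 somas and 23.3, 15.7 and 18.1 CPM in MG132 neurites. Its Ctrl somas libraries differed by more than 2-fold among themselves, and in neurites the treated libraries lay below all untreated ones. The log2 difference was -0.35 in somas (-1.04 to 0.35) and -0.97 in neurites (-1.70 to -0.25, edgeR adjusted p = 0.0461), neither of them called. With the replicate number as a block, since same-numbered libraries deviated together, the neurites change was -0.94 (-1.39 to -0.50, edgeR adjusted p = 0.00138) and was called as lower, beside 21.5% of all genes called in that fit.

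**Figure D3:**
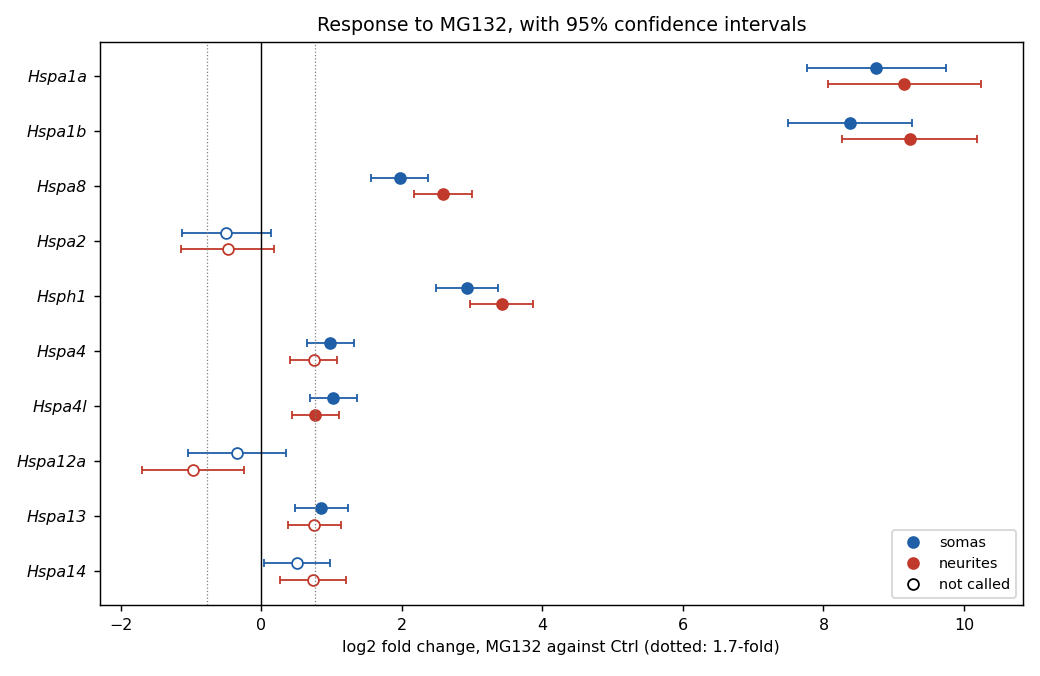
Log2 fold change of each member with MG132 in somas and in neurites, with 95% confidence intervals from edgeR. Filled dots were called (adjusted p under 0.01 and above 1.7-fold, the dotted lines) and open dots were not. The inducible pair lies above 8, *Hsph1* and *Hspa8* between 1.97 and 3.42, and several members lie close to the dotted line.

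Whether the response differed between fractions was tested as an interaction, the log2 fold change in neurites minus that in somas. It shares all 4 groups with the comparisons above. No member passed, and neither did any other gene (0% called, with 1000 genes at an unadjusted p under 0.05 by edgeR; the replicate block called 21 genes, or 0.148%, and DESeq2 27, none of them a member). The estimates, intervals and adjusted p-values that follow are from the fit without the replicate block, which ignores the pairing of same-numbered libraries. The difference was 0.61 for *Hspa8* (0.06 to 1.17, edgeR adjusted p = 0.662), larger in neurites for 3 of 3 same-numbered replicates, and 0.50 for *Hsph1* (-0.09 to 1.08, edgeR adjusted p = 0.775), also in 3 of 3. It was 0.85 for *Hspa1b* (-0.30 to 2.01), also larger in neurites in 3 of 3, and 0.40 for *Hspa1a* (-1.04 to 1.84), with replicates in both directions. Both intervals are wide, and the Ctrl levels of this pair rest on few reads. For *Hspa4* (-0.24, -0.70 to 0.23), *Hspa4l* (-0.26, -0.73 to 0.21) and *Hspa12a* (-0.63, -1.63 to 0.37) the estimates were negative, and their intervals include both directions. The response was lower in neurites in 3 of 3 same-numbered replicates for *Hspa4l* and *Hspa12a*, and not in all 3 for *Hspa4*. At an unadjusted p under 0.05 were 1 member by edgeR, 4 with the replicate block and 2 by DESeq2, beside 1000, 1580 and 1167 of all genes.

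The next comparison asked how the family was distributed between the fractions. In Ctrl neurons, *Hspa4* was higher and *Hspa2* lower in neurites than in somas, and 8 members were not called, beside 7.42% of all genes called (6.15% as higher and 1.28% as lower). In MG132 neurons, *Hspa4* was higher and *Hspa2* and *Hspa12a* were lower, beside 9.00% of all genes called (6.92% as higher and 2.08% as lower). The fractions did not overlap for 6 members in Ctrl and 7 in MG132, beside 33.7% and 36.8% of all genes. No member reached an absolute log2 ratio above 1.7, as 2.46% and 2.55% of genes did, and at an edgeR adjusted p under 0.05 alone 3 and 5 members passed, beside 14.9% and 17.7%. The members' median log2 ratio of neurites to somas was -0.41 in Ctrl and -0.53 in MG132, beside -0.04 and -0.08 for all genes. Both comparisons depend on the scaling. Mitochondrial genes took 17.1%, 13.9% and 13.0% of the counts in Ctrl somas and 29.2%, 16.7% and 16.6% in Ctrl neurites, and 16.1%, 11.97% and 9.78% in MG132 somas and 29.0%, 13.5% and 21.3% in MG132 neurites, and their part in these results was not tested. On total counts the median ratio of all genes moved to -0.70 in Ctrl and -0.86 in MG132, and the calls turned from 872 higher and 181 lower to 179 higher and 938 lower in Ctrl, and from 982 and 295 to 138 and 2118 in MG132. With the replicate block, 12.5% of genes were called in Ctrl and 14.7% in MG132.

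*Hspa4* was 2.31-fold higher in Ctrl neurites than in Ctrl somas, a log2 ratio of 1.21 (0.88 to 1.54, edgeR adjusted p = 8.08e-05), and 1.96-fold higher in MG132 neurites than in MG132 somas (0.97, 0.64 to 1.31, edgeR adjusted p = 5.39e-04). All 3 pairs had more of it in neurites in both conditions, and the groups did not overlap. On total counts it was not called, with a ratio of 0.52 in Ctrl and 0.17 in MG132, while its distance from the median of all genes stayed at 1.23 and 1.03, beside 1.25 and 1.05 with TMM factors. Its HSP110 relatives had no such ratio. *Hspa4l* measured -0.22 in Ctrl (-0.55 to 0.11) and -0.48 in MG132 (-0.81 to -0.15, edgeR adjusted p = 0.0457), and *Hsph1* -0.29 in Ctrl (-0.70 to 0.12) and 0.21 in MG132 (-0.20 to 0.62), the latter -0.60 on total counts.

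*Hspa2* was lower in neurites by 1.30 on the log2 scale in Ctrl (ratio -1.30, -1.95 to -0.64, edgeR adjusted p = 0.00998) and by 1.28 in MG132 (ratio -1.28, -1.94 to -0.62, edgeR adjusted p = 0.00966), in 3 of 3 pairs each, and its groups did not overlap. These calls stood at the threshold. Leaving out 1 of the 6 libraries at a time lost the Ctrl call in 5 fits and the MG132 call in 4, with ratios from -1.56 to -1.16 and from -1.53 to -1.05, while the replicate block gave an edgeR adjusted p = 7.11e-05 in Ctrl and adjusted p = 1.23e-04 in MG132. The MG132 call of *Hspa2* was also lost when only the MG132 groups were fitted. *Hspa12a* had a ratio of -0.87 in Ctrl (-1.58 to -0.17, edgeR adjusted p = 0.0938) and -1.50 in MG132 (-2.22 to -0.78, edgeR adjusted p = 0.00658). Its Ctrl groups overlapped and its MG132 groups did not. The MG132 call was lost in 5 of 6 such fits, all but that without MG132 somas replicate 2. With the block the Ctrl ratio was -0.82 and was called (edgeR adjusted p = 0.00525).

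The inducible pair was not called between fractions by edgeR with TMM factors. *Hspa1b* had a log2 ratio of -1.43 in Ctrl (-2.39 to -0.47, edgeR adjusted p = 0.0451) and -0.57 in MG132 (-1.20 to 0.05), and *Hspa1a* -1.01 (-2.29 to 0.27) and -0.62 (-1.29 to 0.06). Both were lower in neurites in 3 of 3 MG132 pairs. With the replicate block the Ctrl ratio of *Hspa1b* was -1.42 and was called (edgeR adjusted p = 0.00211), which brought the members called in Ctrl to 4. It was also called by DESeq2 (-1.49, adjusted p = 0.00872) and without a count filter (-1.50, edgeR adjusted p = 0.00306). *Hspa8* had a ratio of -0.15 in Ctrl (-0.54 to 0.24), with same-numbered pairs at 0.01, -0.35 and -0.12, and 0.46 in MG132 (0.07 to 0.85, edgeR adjusted p = 0.0965), with pairs at 0.38, 0.34 and 0.62. On total counts the MG132 ratio of *Hspa8* was -0.37, which lay 0.49 above the median of all genes, beside 0.54 with TMM factors. *Hspa13* had ratios of -0.54 (-0.92 to -0.16) and -0.63 (-1.01 to -0.26) and *Hspa14* of 0.19 (-0.28 to 0.67) and 0.42 (-0.04 to 0.89), none of them called. On total counts the ratios of *Hspa14* were -0.475 and -0.353, and the calls as lower in neurites came to 4 members in Ctrl (*Hspa1b*, *Hspa2*, *Hspa12a* and *Hspa13*) and 6 in MG132 (these and *Hspa1a* and *Hspa4l*). In the same setting 938 of all 14185 genes were called as lower in Ctrl and 2118 in MG132.

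**Figure D4:**
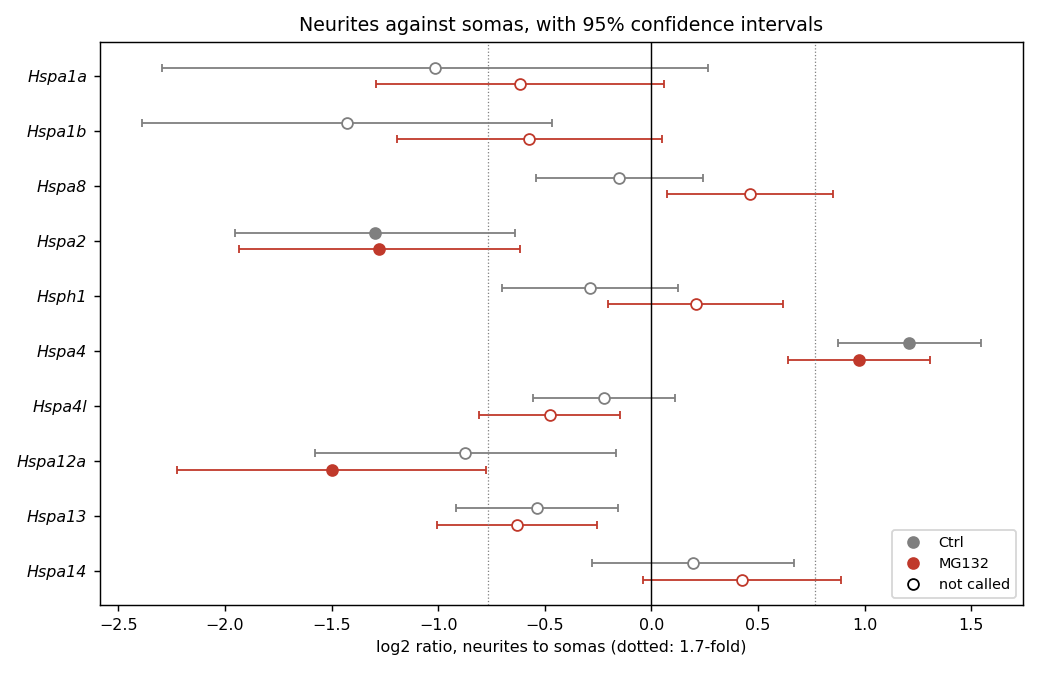
Log2 ratio of neurites to somas for each member in Ctrl and in MG132, with 95% confidence intervals from edgeR and TMM scaling. Filled dots were called and open dots were not, and dotted lines mark 1.7-fold. *Hspa4* lies to the right in both conditions (1.21 and 0.97), *Hspa2* to the left in both (-1.30 and -1.28), and *Hspa8* and *Hsph1* lie on either side of 0 with this scaling (on total counts both are below 0 in both conditions).

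Levels of different members were compared per length, as CPM per kb of exon. In Ctrl somas the most abundant were *Hspa8* (59.2 ± 3.03, SD, n = 3), *Hsph1* (51.5 ± 3.51) and *Hspa4* (47.3 ± 2.83), the last 2 overlapping. In Ctrl neurites the first was *Hspa4* (109 ± 11.6), ahead of *Hspa8* (53.3 ± 3.90) and *Hsph1* (42.2 ± 1.28). In MG132 somas *Hsph1* (391 ± 94.0) and *Hspa1b* (385 ± 112) led and could not be told apart, followed by *Hspa8* (232 ± 30.4) and *Hspa1a* (214 ± 44.4), which also overlapped. In MG132 neurites *Hsph1* (451 ± 69.7) was followed by *Hspa8* (320 ± 75.6), *Hspa1b* (259 ± 99.3) and *Hspa4* (183 ± 11.6), and each overlapped with the next in this order. When only windows not shared with other genes were counted as length, *Hspa8* was first in Ctrl neurites (175 ± 12.8, with *Hspa4* at 111 ± 11.8, per 1000 windows) and in MG132 neurites (1049.8 ± 248, with *Hspa1b* at 603 ± 231), and *Hspa1b* and *Hspa8* overlapped at the top in MG132 somas (896 ± 261 and 762 ± 99.7). The order of these genes thus depends on how shared sequence is treated.

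The share of the inducible pair in the cytosolic HSP70 mRNA pool, taken as *Hspa1a*, *Hspa1b*, *Hspa2* and *Hspa8* per kb of exon, does not depend on library scaling, since each library is its own reference. The share does set mainly 3′ stretches of the pair against mainly 5′ stretches of *Hspa8*, and coverage along transcripts was not tested. It was 1.52%, 2.51% and 1.71% in Ctrl somas and 0.895%, 1.21% and 0.990% in Ctrl neurites. With MG132 it was 69.0%, 68.2% and 73.1% in somas and 51.7%, 53.0% and 57.9% in neurites. The inducible genes thus made up most of the pool in treated libraries of both fractions on this scale, and the neurites libraries lay below the somas libraries in both conditions. The mean difference was -15.9 percentage points in MG132 and -0.88 in Ctrl, each with p = 0.1 in an exact permutation test (two-sided), the smallest value that 3 against 3 libraries allow. Per unshared window the treated shares were 64.9% ± 2.91 in somas and 47.3% ± 3.33 in neurites (SD, n = 3), a difference of -17.6 percentage points.

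**Figure D5:**
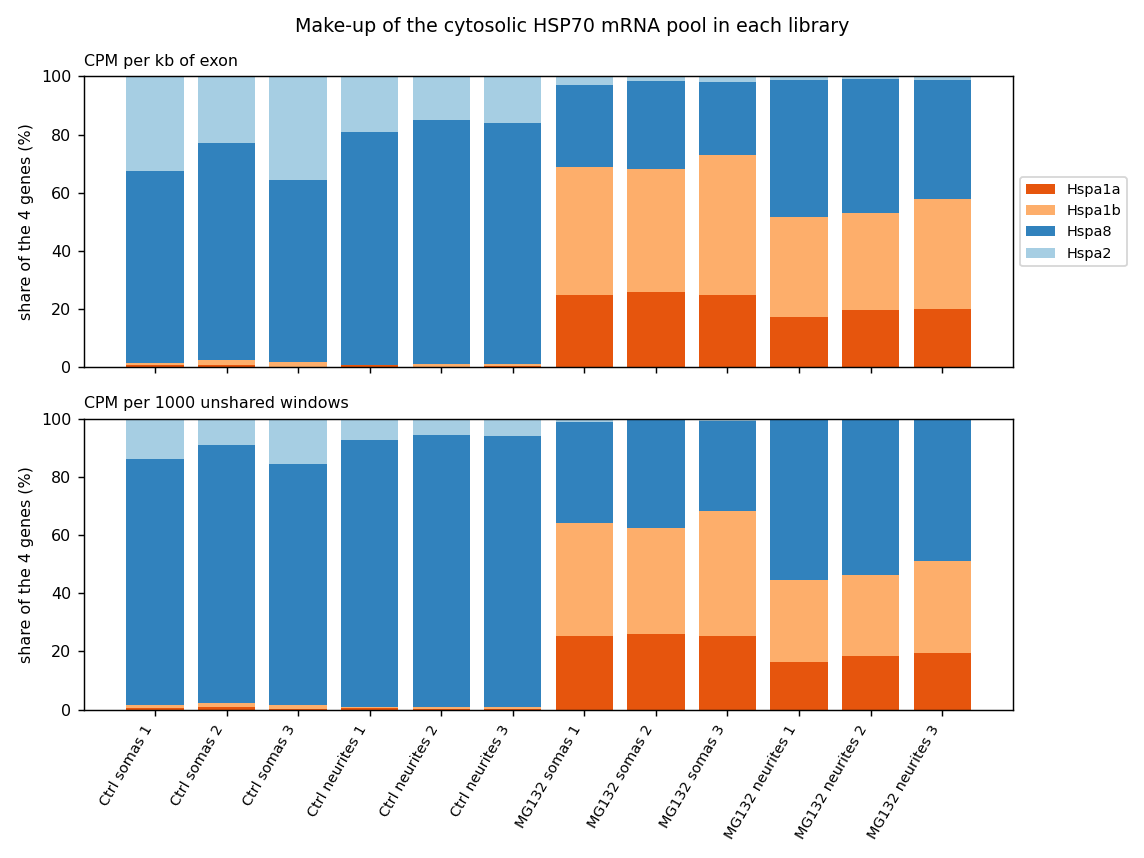
Share of *Hspa1a*, *Hspa1b*, *Hspa8* and *Hspa2* in their summed level in each of the 12 libraries, per kb of exon (top) and per 1000 windows not shared with other genes (bottom). In Ctrl libraries *Hspa8* and *Hspa2* make up nearly all of the pool, and in MG132 libraries the inducible pair takes 68.2% to 73.1% in somas and 51.7% to 57.9% in neurites on the upper scale.

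Among the constitutive genes of the pool, *Hspa2* took 30.3% ± 6.64 of the whole in Ctrl somas, 16.7% ± 2.16 in Ctrl neurites, 2.25% ± 0.813 in MG132 somas and 1.08% ± 0.0148 in MG132 neurites per kb of exon. *Hspa8* took 67.8% ± 6.16, 82.2% ± 2.02, 27.7% ± 2.72 and 44.7% ± 3.27. Per unshared window, which allows for the shared sequence of *Hspa8*, *Hspa2* took 12.7% ± 3.37 in Ctrl somas and 6.22% ± 0.905 in Ctrl neurites, and *Hspa8* took 85.5% ± 3.02 and 92.9% ± 0.833. *Hspa1b* outweighed *Hspa1a* in each MG132 group, at 44.9% ± 3.10 and 25.2% ± 0.715 in somas and 35.2% ± 2.19 and 19.0% ± 1.56 in neurites.

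Genes that work with HSP70 were read from a list of 41, of which 38 were tested. With MG132, 17 rose in somas and 17 in neurites, and none was called lower, with a median log2 fold change of 0.87 and 0.95. Of all tested genes, 9.00% rose and 5.58% fell in somas and 9.25% and 5.44% in neurites, with medians of -0.07 and -0.16. On total counts 11 partner genes rose in somas and 13 in neurites, and none was called lower. Of all 14185 genes, that scaling called 492 as higher and 418 as lower in somas, and 481 and 538 in neurites. By role, 8 of 13 J-domain partners rose in somas and 7 in neurites, 4 of 8 HSP90 and TPR partners in each fraction, 2 of 10 nucleotide exchange factors in each, and 2 of 4 other HSP70 and HSP110 genes in each. The heat shock factor genes tested were *Hsf1* and *Hsf2*, since *Hsf4* and *Hsf5* had too few counts. *Hsf2* rose in both fractions (1.52 and 1.90), and *Hsf1*, the master regulator of the heat shock response, rose in neurites (1.69, edgeR adjusted p = 0.00442) and measured 1.27 in somas (edgeR adjusted p = 0.0166). The *Hsf1* call in neurites was lost on total counts (1.504, edgeR adjusted p = 0.0302).

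The J-domain gene *Dnajb1*, the main stress-inducible partner of HSP70, had the largest change in neurites on this list, from 14.8, 12.3 and 10.6 CPM to 138, 163 and 167 CPM (3.64, edgeR adjusted p = 5.67e-08), and rose from 13.6, 14.3 and 15.7 CPM to 209.5, 263 and 303 CPM in somas (4.16, edgeR adjusted p = 1.33e-08). It was followed in neurites by *Hsp90aa1*, the inducible cytosolic HSP90 (2.54, and 2.34 in somas), the J-domain genes *Dnaja1* (2.45, and 1.96) and *Dnaja4* (2.12, and 1.81), and *Bag3*, an exchange factor that links HSP70 to autophagy (2.10, and 2.55). *Dnajc2*, the ribosomal partner of *Hspa14*, measured 1.92 in neurites and 1.44 in somas, and *Stip1*, which hands clients from HSP70 to HSP90, 1.92 and 1.81. *Hsp90ab1* measured 1.81 and 1.5, the mitochondrial HSP70 gene *Hspa9* 1.73 and 1.36, and *Grpel1*, its exchange factor, 1.68 and 1.24. All of these were called in both fractions with TMM factors, and on total counts all but *Grpel1* in somas (1.24, edgeR adjusted p = 0.0246).

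Between fractions, 3 of the 38 partner genes were called in Ctrl, all higher in neurites, beside 6.15% of all genes called as higher and 1.28% as lower. They are named after their values were seen. *Bag1*, an exchange factor that links HSP70 to the proteasome, was 5.16-fold higher (33.2, 33.5 and 35.5 CPM in somas, 155, 156 and 215 CPM in neurites, edgeR adjusted p = 1.83e-06), and *Dnajc2* was 2.92-fold higher (17.8, 17.6 and 21.0 CPM in somas, 51.6, 57.1 and 56.0 CPM in neurites, edgeR adjusted p = 4.01e-05). *Hsbp1*, which encodes a small protein that binds HSF1, was 1.79-fold higher (edgeR adjusted p = 0.00647). On total counts the log2 ratio was 1.71 for *Bag1*, which was called, 0.89 for *Dnajc2* and 0.17 for *Hsbp1*, which were not, and *Hsf2* (-1.31), *Dnajb4* (-1.28) and *Dnajc6* (-1.78) were called as lower in neurites. That scaling called 7.87% of all 14185 genes in Ctrl, 938 as lower in neurites and 179 as higher. In MG132 neurons 7 partner genes were higher in neurites with TMM factors, the 3 above among them, and none was lower, beside 6.92% and 2.08% of all genes. On total counts the calls in MG132 turned to 2 higher, *Bag1* and *Dnajc2*, and 8 lower, *Dnajb1* (-1.51) and *Bag3* (-1.73) among them. Of all 14185 genes, 15.9% were called in that setting, 2118 as lower in neurites and 138 as higher.

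The likeness of expression over the 12 libraries was described for 3 members, as Pearson's correlation of log2 CPM with 13611 genes of at least 1 CPM on average. The points share the same 2 treatments and 2 fractions, so that any strong responder correlates with the others. The closest to *Hspa8* were *Ppp1r12a* (0.986), *Rnf4*, *Ube2d3*, *Uso1* and *Sqstm1* (0.983). The closest to *Hspa1b* were *Nktr* (0.996), *Aars*, *Stip1*, *Csrnp1* and *Sqstm1* (0.989), and to *Hsph1* they were *Gars* (0.993), *Sqstm1*, *Brd1*, *Chordc1* and *Aars* (0.988). Among the members, *Hspa8*, *Hsph1*, *Hspa1a* and *Hspa1b* correlated with each other at 0.972 to 0.991, and *Hspa2* with *Hspa12a* at 0.858 and with *Hspa4* at -0.824.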

How the data were processed

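The deposited files hold read counts per gene, whole numbers without normalization, for 12 polyA libraries. Per the labels and the study's methods, the authors trimmed reads with Trimmomatic 0.38.0, aligned them to mm10 with STAR and counted them with featureCounts 2.0.1 at default settings. Symbols were found for 93.0% of the 27179 gene identifiers in RefSeq, which also gave gene coordinates and promoter windows. Transcripts and exon lengths came from GENCODE M21.

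Counts were fitted with edgeR 4.0.16 (R 4.3.3, filterByExpr, TMM factors from 0.567 to 1.44, quasi-likelihood test, 4 group means over 12 libraries), with Benjamini-Hochberg adjustment over 14185 genes. A single gene took 12.4% to 33.4% of the counts of a library. DESeq2 1.42.0, other scalings, filters, thresholds, left-out libraries and a replicate block were alternatives. The procedure was tested on simulated data. Each standard error was taken as |log2 fold change| over the root of the F statistic. None of the 66 library pairs had identical counts. Deviations from group means were correlated between libraries of the same replicate number (0.165 to 0.248 in the 4 comparisons, each above 0.1), so these numbers were taken to pair the libraries, and the blocked value is given where it changed a call. Over all 18 same-numbered pairs of libraries the correlation ran from 0.0972 to 0.248, and 17 were above 0.1. The deposited file names also share a number code and a culture age within replicates 1 and 2 and, but for 1 library's code, within replicate 3. The labels do not say whether replicates are separate cultures, so p-values measure the spread between libraries. The named genes are the 10 members, the 12 called partner genes with the largest change in neurites, and the 5 genes most like each of 3 members. Partner genes named for a difference between fractions, such as *Bag1*, *Hsbp1*, *Dnajb4* and *Dnajc6*, fall outside this rule and were named after their values were seen, as were single genes of the marker lists. The members and lists were chosen with earlier results of these data known.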

Additional observations from a re-analysis of the deposited data

Results flagged for a closer look

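The neurites to somas ratio of *Hsph1* went in opposite directions in the 2 conditions. Same-numbered pairs stood at -0.28, -0.35 and -0.23 on the log2 scale in Ctrl and at 0.11, 0.49 and 0.07 in MG132. The difference of 0.50 was tested as an interaction and did not pass (edgeR adjusted p = 0.775, or 0.364 with the replicate block), and on total counts the MG132 ratio was -0.60.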

How the results depend on the processing

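Of 469 values of single members under other settings, 422 kept their direction and their call, and of 360 from fits that left out 1 library, 329 did. Part of this agreement was fixed in advance. The other thresholds used the same fit, so that directions could not change. For the interaction no member was called under any setting. On total counts the members called were 4 in somas with MG132, 4 between fractions in Ctrl and 6 in MG132, beside 6.42%, 7.87% and 15.9% of all genes. The ratio of neurites to somas turned negative for *Hspa14* in Ctrl (-0.475) and for *Hspa8* (-0.372), *Hspa14* (-0.353) and *Hsph1* (-0.604) in MG132. The median of all genes shifts with them, and the cause was not tested. The difference between responses turned to -0.15 for *Hspa2* on total counts and to 0.0266 for *Hspa13* without a count filter. A minimum of 10 counts in every library left 8 members to test, since it removes *Hspa1a* and *Hspa1b*, and gave 4 calls in somas and 2 in neurites, beside 19.8% and 20.9% of the 9597 genes left. At an absolute log2 fold change above 1.7, 4 members were called in somas, 4 in neurites and 0 between fractions in either condition. At an adjusted p under 0.05, 9 were called in neurites with MG132 and 5 between fractions in MG132.

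Over all genes, total counts called 910 genes in place of 2068 in somas, 1019 in place of 2084 in neurites and 2256 in place of 1277 between fractions in MG132, and DESeq2 1609 in place of 1053 between fractions in Ctrl. The log2 threshold left 644, 657, 349 and 362 genes in the 4 comparisons and the adjusted p alone 3897, 3823, 2111 and 2516.

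With the replicate block 1768 genes were called between fractions in Ctrl in place of 1053, and 2086 in MG132 in place of 1277. With it 4 members were called between fractions in Ctrl in place of 2, and 6 in neurites with MG132 in place of 5. It changed no other member's call.

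With 1 library left out, between 6 and 7 members were called in somas, 4 and 7 in neurites, 1 and 2 between fractions in Ctrl, 1 and 3 in MG132, and 0 in the interaction. In the same fits 9.0% to 11.3% of all genes were called in somas, 10.8% to 13.1% in neurites, 4.63% to 6.64% between fractions in Ctrl and 5.18% to 6.86% in MG132, all below the shares with every library. The count of genes fell by more than 1.5 times in somas without Ctrl somas replicate 1 (1312), between fractions in Ctrl without Ctrl somas replicate 1 (674), 2 (690) or 3 (692) or Ctrl neurites replicate 3 (684), and in MG132 without MG132 somas replicate 1 (805) or MG132 neurites replicate 2 (762). The inducible share differed by -17.7 to -14.4 percentage points in MG132 and by -1.07 to -0.582 in Ctrl. Directions turned for *Hspa12a* in somas (-0.613 to 0.0556, the latter without Ctrl somas replicate 1), and in the interaction for *Hspa2* (-0.237 to 0.325) and *Hspa13* (-0.145 to 0.127). The fewest reads lay behind *Hspa1a* and *Hspa1b* in Ctrl, where depth limits the precision of folds and ratios.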
